A study of Mus musculus with 4 samples.

Results

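The cells described here are granulosa cells of mouse ovary with a high share of RNA from 6 genes, Gatm, Kctd14, Itga6, Col18a1, Cdh12 and Cntn4. They were chosen in 2 steps from 33639 deposited cells. A granulosa gate, applied to the 4 libraries pooled, took cells with at least 5000 UMIs (unique molecular identifiers, the tags that count each captured transcript once), at most 20% mitochondrial UMIs, at least 3 of the 6 genes Foxl2, Fshr, Nr5a2, Kctd14, Gatm and Amhr2 with a UMI, and fewer than 5 UMIs of Dcn and Col1a1 per 10000. The gate held 8179 cells. The 20% of these with the highest share of UMIs in the 6 score genes, 1636 cells, are called the members below, and the remaining 6543 the other gated cells. Amh itself was left out of the score.

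The libraries came from prepubertal mice, postnatal day 25 per the series text. The control library, from animals given PBS/saline, is compared with doxorubicin, an anthracycline given in 2 weekly doses of 3 mg/kg, with the same doxorubicin course plus recombinant human anti-Müllerian hormone (AMH) at 0.75 mg/kg, written doxorubicin+AMH, and with AMH at 0.75 mg/kg alone, whose schedule the labels do not give. Ovaries were taken 4 hours after the last doxorubicin dose, and 1 ovary of each of 5 animals was pooled into each library before enzymatic and mechanical dissociation. Per its title, the study asks about protection of the ovary by AMH, by way of DNA damage responses and the fate of cells. With 1 library per group there was no test between groups: every difference below is between libraries, and intervals are 95% intervals that cover counting error only. A series of 4 values gives control first, then doxorubicin, then doxorubicin+AMH, and AMH last.

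Granulosa cells surround the oocyte and support its growth. In primordial follicles they form a flat, resting layer, and in small growing follicles they become cuboidal, divide, and secrete AMH, which restrains the recruitment of further follicles. In large antral follicles their program turns to inhibin and activin subunits, the receptor for luteinising hormone and steroid synthesis. AMH binds its own type 2 receptor, Amhr2, and works through the SMAD proteins that it shares with bone morphogenetic proteins (BMPs), whose well-known target genes are the Id genes and the inhibitory SMADs Smad6 and Smad7. Doxorubicin traps topoisomerase II on DNA, and the resulting breaks activate p53 and its target genes, among them Cdkn1a, Ccng1 and Bax.

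Of the genes that chose the members, Gatm encodes the enzyme of the first step of creatine synthesis and lies at chr2:122594467-122611303 (minus strand). Kctd14, a gene of the potassium channel tetramerisation domain family, lies at chr7:97451323-97459557 (plus strand). Itga6, a laminin-binding integrin subunit, lies at chr2:71745616-71858416 (plus strand), and Col18a1, a collagen of basement membranes, at chr10:77052178-77166548 (minus strand). The adhesion genes are Cdh12, a cadherin at chr15:20449265-21589533 (plus strand), and Cntn4, a contactin at chr6:105677660-106699310 (plus strand). Positions are those of whole genes on GRCm38 from the GENCODE M21 annotation. An exon of Cdh12 overlaps an unnamed gene model on its own strand, so UMIs could be shared between them.

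The promoter windows of 4 genes on which the results turn are printed next, from RefSeq on GRCm38.p6, as the bases upstream of the start site, 5′ to 3′ in the direction of the gene and without bases of an annotated UTR. The bases printed for Id2 therefore end 161 bases before its RefSeq start site, in an intron of a longer GENCODE transcript, and those for Plxna2 lie in an exon of a non-coding GENCODE transcript of that gene. Gatm (chr2:122611304-122611527, minus strand) is a score gene. The windows of Smad6 (chr9:64022060-64022309, minus strand), Id2 (chr12:25096254-25096342, minus strand) and Plxna2 (chr1:194619579-194619824, plus strand) belong to genes that were higher in the members of both libraries from animals given AMH. Capitals mark GGCGCC, a GC-rich element bound by BMP-type SMADs.
Gatm: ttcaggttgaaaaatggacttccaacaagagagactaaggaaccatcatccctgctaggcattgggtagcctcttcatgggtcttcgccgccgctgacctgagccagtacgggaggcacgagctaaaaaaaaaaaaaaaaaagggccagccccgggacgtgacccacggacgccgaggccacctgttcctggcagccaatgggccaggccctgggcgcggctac
Smad6: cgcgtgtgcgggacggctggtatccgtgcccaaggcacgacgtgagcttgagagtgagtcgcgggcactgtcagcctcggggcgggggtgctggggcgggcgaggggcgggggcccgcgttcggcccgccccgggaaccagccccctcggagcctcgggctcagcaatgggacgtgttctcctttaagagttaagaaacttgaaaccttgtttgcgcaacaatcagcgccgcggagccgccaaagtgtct
Id2: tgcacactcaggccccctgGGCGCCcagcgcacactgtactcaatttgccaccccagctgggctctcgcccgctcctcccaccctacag
Plxna2: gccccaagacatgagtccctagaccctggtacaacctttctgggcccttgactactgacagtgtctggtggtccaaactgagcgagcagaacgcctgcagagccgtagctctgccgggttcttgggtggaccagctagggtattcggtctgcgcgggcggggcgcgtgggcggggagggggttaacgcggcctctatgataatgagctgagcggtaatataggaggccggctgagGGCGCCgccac

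GGCGCC, searched on both strands, of which it is its own reverse complement, occurred in the windows of Id2 and Plxna2 (1 match each) and not in those of Gatm and Smad6. Over all RefSeq windows of 250 bases, 3149 of 32851 (9.59%) held it. Of the 5 BMP/SMAD target genes whose window was searched, Id2, Id4 and Smad9 held 1 match each, and Smad6 and Id3 held 0. The window of Wnt4 held 2 matches, and those of Megf6, Tmtc1 and Slc18a2 held 0. These matches are letters in a window of fixed length, not measured binding.

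The libraries held 7141 to 9478 deposited cells and 138647495 to 178279122 UMIs each. Members had a median of 28049.5, 22745.5, 28540 and 24031 UMIs and medians of 6.66% to 7.27% mitochondrial UMIs. Members of the doxorubicin library under 10000 UMIs made up 19.0%, against 7.07%, 10.0% and 11.7% in the others. Pairs of libraries shared 11 to 24 cell barcodes, and no barcode was a member in more than 1 library. A member was counted as carrying RNA of another cell type when at least 5 per 10000 of its UMIs came from a list of endothelial, surface epithelial, oviduct epithelial, macrophage, oocyte, red cell or smooth muscle genes, a limit and an oviduct list chosen after the values were seen. Such members numbered 59 of 552, 74 of 516, 15 of 219 and 51 of 349. Oviduct genes passed the limit in 34, 2, 3 and 22 members and surface epithelial genes in 21, 2, 1 and 7. Smooth muscle genes did so in 18, 68, 8 and 18, and 52 of the 68 in doxorubicin had under 10000 UMIs. The control and AMH libraries thus stood apart by oviduct-type RNA and the doxorubicin library by shallow cells with smooth muscle genes, and values without all of these members, 1437 cells, are given beside the results they touch.

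The lowest member had 5.67 score UMIs per 10000, and the highest cell outside had 5.66. The boundary fell in a continuous range: 109 members lay within 10% above it and 114 other cells within 10% below it. The median score was 13.9 per 10000 in members and 1.07 in the other gated cells, of which 834 had none. Most members carried the score through several genes, since 72.6%, 75.8%, 73.5% and 73.4% of them had UMIs of 4 or more of the 6. Because these genes chose the cells, their levels are a description with no test.

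Levels below are CPM, the UMIs of a gene per 1000000 UMIs summed over the cells named. Gatm stood at 183, 198, 252 and 308 CPM in members and at 8.88, 8.79, 15.9 and 18.6 CPM in the other gated cells. Kctd14 stood at 716, 826, 307 and 225 CPM in members and 78.3, 75.7, 57.6 and 53.3 CPM in the other gated cells. Kctd14 therefore gave 37.3% and 44.1% of all score UMIs in control and doxorubicin, but 24.2% and 17.0% in doxorubicin+AMH and AMH.

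Itga6 stood at 402, 372, 283 and 337 CPM and Col18a1 at 155, 142, 147 and 187 CPM in members. Cdh12, almost unseen in the other gated cells at 2.12, 1.67, 1.27 and 2.07 CPM, stood at 123, 97.0, 108 and 126 CPM. These 3 genes differed between the libraries by less than 1.5-fold. Cntn4 was highest in control and lowest in AMH, at 341, 238, 173 and 143 CPM. As a measure of free RNA in droplets, cells with 6 or more of 8 macrophage genes and no UMI of any gate gene were taken (34, 13, 7 and 34 cells). Gatm and Kctd14 are gate genes, so their absence was fixed by this choice and says nothing about free RNA. These macrophage cells had no UMI of Cdh12, while Itga6 was detected in 42.9% to 47.1% of them.

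**Figure D1:**
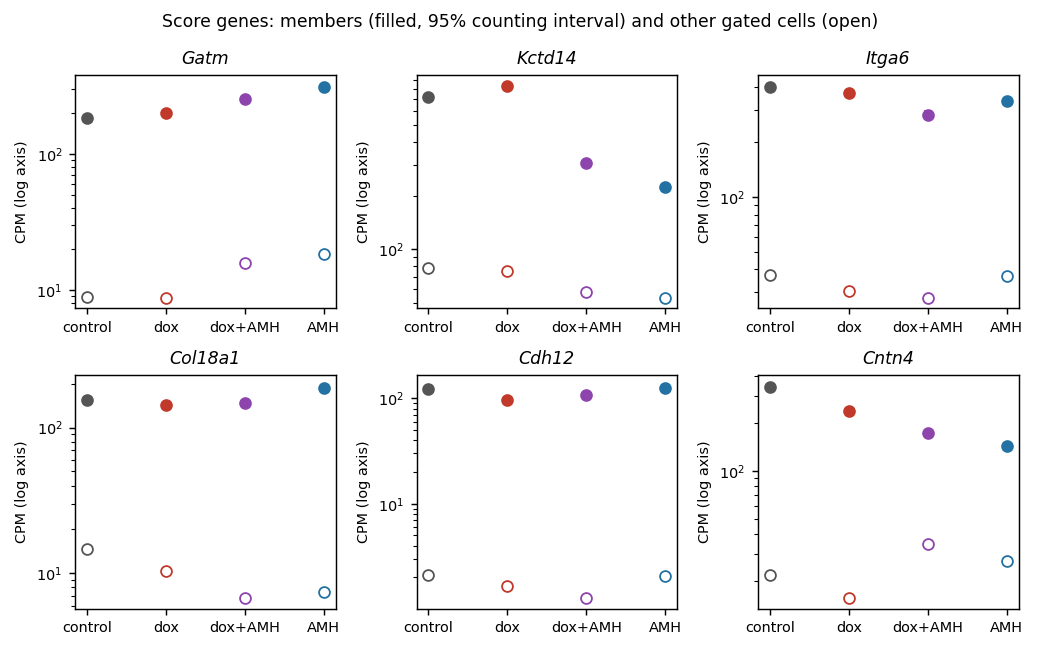
Levels of the 6 score genes by library, as CPM on log axes with a separate range for each gene. Filled points are the members with 95% counting intervals, often smaller than the point, and open points the other gated cells; in the members of both AMH-treated libraries the points of Kctd14 and Cntn4 lie lower and those of Gatm higher than in the other two, among cells chosen by the sum of these genes.

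The members did not make up the same share of the gate in every library. They were 552 of 2103 gated cells in control (26.2%, exact Clopper-Pearson interval 24.4 to 28.2), 516 of 1858 in doxorubicin (27.8%, 25.7 to 29.9), 219 of 1862 in doxorubicin+AMH (11.8%, 10.3 to 13.3) and 349 of 2356 in AMH (14.8%, 13.4 to 16.3). The shares of both AMH-treated libraries lay below those of control and doxorubicin, and the difference between control and doxorubicin was within their intervals. Of all deposited cells the members were 2.80% in doxorubicin+AMH and 3.68% in AMH, against 6.0% (5.52 to 6.5) in control and 7.23% (6.64 to 7.85) in doxorubicin. By this denominator the intervals of control and doxorubicin did not overlap.

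Kctd14 is a gene of both the gate and the score. With Kctd14 left out of the score, an alternative added after the values were seen, the shares were 22.9%, 24.3%, 14.4% and 18.4%, in the same order but closer together, and 1314 of the 1636 cells chosen that way were also members. Leaving out Gatm, Itga6, Col18a1, Cdh12 or Cntn4 gave 11.1% to 11.8% in doxorubicin+AMH and 14.2% to 14.8% in AMH. Over the whole gate, members and other gated cells together, Kctd14 stood at 253, 261, 85.8 and 77.1 CPM and Gatm at 56.5, 55.8, 42.7 and 58.8 CPM. Over the same cells Itga6 stood at 137, 115, 56.8 and 78.4 CPM, Col18a1 at 53.1, 43.0, 22.7 and 32.4 CPM, Cdh12 at 35.2, 25.3, 13.4 and 19.3 CPM and Cntn4 at 109, 70.9, 50.3 and 43.2 CPM. All of the score genes except Gatm were thus lower in both AMH-treated libraries than in the other two. A lower level of the score genes per cell and fewer cells of this kind cannot be told apart in these shares.

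The next values describe the chosen cells only, since choosing cells by the sum of these 6 genes itself shapes how the genes go together among them. Over the 1636 cells, which share library and depth effects, Spearman's rho between the shares of Gatm, Itga6, Col18a1 and Cdh12 lay between 0.50 and 0.61 for each pair. Kctd14 had rho between -0.20 and -0.11 with these 4 genes, and Cntn4 between 0.10 and 0.38 with the other five. Members in which Kctd14 gave 50% or more of the score UMIs numbered 261, 260, 63 and 74, which is 47.3%, 50.4%, 28.8% and 21.2% of the members. RNA of other cell types was carried by 32, 10, 6 and 14 of them and by 27, 64, 9 and 37 of the remaining members. The values of this split below include those cells.

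Of 21 genes outside the score that were looked at, 5 were higher in Kctd14-led members than in the remaining members of every library. These were Amh, Inhba, Fshr, Hsd3b1 and Fst. Another 8 were lower in every library (Wnt4, Wt1, Kitl, Lhcgr, Foxl2, Amhr2, Aard and Gas6), and 8 varied between libraries. A difference of any size was counted, and no share over all genes stands beside these counts. Lhcgr was near the floor, at 11.1, 10.1, 3.87 and 1.28 against 12.5, 14.2, 5.23 and 5.55 CPM. Amh stood at 248, 489, 265 and 197 CPM in Kctd14-led members and at 211, 304, 137 and 99.6 CPM in the remaining members. Inhba, which encodes the shared subunit of activin A and inhibin A, stood at 249.8, 140.0, 365 and 479 CPM in them and at 28.2, 64.4, 91.4 and 164 CPM in the remaining members. Fshr, the receptor for follicle-stimulating hormone, stood at 124, 97.7, 85.1 and 77.9 against 60.7, 49.4, 30.8 and 26.6 CPM. Genes listed for small and for antral follicles were thus both among those higher. Wnt4, a signalling ligand of early follicles and ovary formation, was lower in them, at 98.6, 206, 49.1 and 82.2 against 229, 363, 202 and 230.1 CPM, as were Wt1 (233, 159, 65.0 and 107 against 389, 314, 258 and 253 CPM), a zinc finger transcription factor, and Kitl (311, 332, 196 and 243 against 493, 499.5, 414 and 466 CPM), the KIT ligand that granulosa cells offer to the oocyte. Since the split was made on a score gene and after the values were seen, it describes a range within the members, not a cell type.

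Against the other gated cells, members had less RNA of most listed antral, luteal and theca genes and more of 5 of the 11 measured small-follicle genes. This contrast follows from the rule, so it is given as values only. Of the 6820 genes whose mean reached 20 CPM, 172 (2.52%) were at least 1.5-fold higher in members in each of the 4 libraries and 138 (2.02%) at least 1.5-fold lower. Amh, which the score left out, stood at 227, 393, 179.6 and 118 CPM in members and 72.4, 96.2, 51.4 and 28.1 CPM in the other gated cells. It was higher in members of every library.

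The genes highest in members beyond the score genes were led by Ano1, a calcium-activated chloride channel, at 134, 136, 93.3 and 126 against 22.7, 23.3, 10.5 and 11.1 CPM, and Wnt4, at 172, 288, 151 and 202 against 31.0, 39.6, 25.0 and 29.1 CPM. Wt1 stood at 321, 240.1, 194 and 225 against 74.4, 67.5, 44.2 and 53.2 CPM. The neighbouring antisense gene Wt1os, whose annotated exons do not overlap those of Wt1, was also higher, at 125, 97.5, 70.4 and 97.0 against 24.8, 21.8, 14.9 and 21.7 CPM. The other 8 by the naming rule were Chn2, a RAC-inactivating GTPase activator, Pcsk6, a proprotein convertase, Mical2, an actin-oxidising enzyme, Susd4, Shtn1, Tmtc1, Hs6st2, which sulfates heparan, and the kinase Hunk. Amhr2, a gate gene, stood at 190.2, 239, 183 and 184 against 84.0, 89.6, 83.6 and 87.2 CPM and Foxl2, the transcription factor that keeps granulosa identity, at 134, 168, 113 and 110.2 against 62.5, 66.4, 57.5 and 60.8 CPM. Both were higher in members of every library.

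The gene lowest in members against the other gated cells, by the naming rule, was Cyp11a1, which cleaves the side chain of cholesterol, at 73.1, 61.7, 11.0 and 9.47 against 622, 574, 69.7 and 70.7 CPM. Next came Aldh1a1, which makes retinoic acid, at 132, 125, 43.6 and 53.8 against 622, 613, 227 and 253 CPM, and Lhcgr, the receptor for luteinising hormone, at 11.9, 12.2, 4.77 and 4.73 against 89.2, 104, 36.0 and 44.9 CPM. Inhba stood at 125, 101, 183 and 224 against 488, 607, 1014 and 843 CPM. The others were Mgarp, Bmp2, the hormone receptors Prlr and Ghr, the protease genes Prss35 and Adamts5, the glypican Gpc6, and Nap1l5.

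By list, 5 of 11 measured genes of small follicles were at least 1.5-fold higher in members in all 4 libraries (Amh, Igfbp5, Slc18a2, Aard and Wt1) and 2 lower (Fst and Gja1). The list's median log2 ratio was 0.94, 1.07, 0.92 and 0.82, against 0.04, 0.05, 0.03 and 0.06 for all genes. Of 10 measured genes of antral and mural granulosa cells, 7 were lower and 1, the matrix proteoglycan Vcan, was higher. Each of the 6 measured luteal genes and of the 6 measured theca genes was lower. These lists overlap: Lhcgr, Star and Hsd3b1 are on both, and Lhcgr is also among the 7 lower antral genes. Of the pregranulosa list, genes of resting follicles, 4 of 6 measured members were higher in all 4 libraries (Wnt4, Wnt6, Irx3 and Krt8), with list medians of 1.30, 0.64, 0.74 and 1.26. Without the members that carried RNA of other cell types the medians were 0.68, 0.58, 0.72 and 0.73, and 3 of the 6 were higher, without Krt8. Krt8, a keratin also found in lining epithelia, stood at 114, 74.4, 59.9 and 97.4 CPM, and at 56.9, 70.1, 57.2 and 60.2 CPM without those members. Among the other lists, leaving them out lost 1 call in the small-follicle list (Gja1) and 1 in the antral list (Inha). Of 11 measured genes of gonadotropin response and steroid synthesis, 4 were lower (Cyp11a1, Lhcgr, Star and Hsd3b1, each also on the luteal list) with or without them. The labels give no follicle size, so the name small-follicle granulosa cells rests on these genes, and the lists do not separate resting from small growing follicles.

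Divided into 5 groups of 1635 or 1636 gated cells by score, these genes did not all move evenly. Amh was higher in each successive group in every library, for example at 34.3, 48.0, 83.5, 232 and 393 CPM in doxorubicin. Wnt4 stood between 18.3 and 60.1 CPM in the lower 4 groups and between 151 and 288 CPM in the members. Inhba stood between 423 and 1141 CPM in the lower 4 and between 101 and 224 CPM in the members. Ghr, the growth hormone receptor, was lowest in the members of each library.

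**Figure D2:**
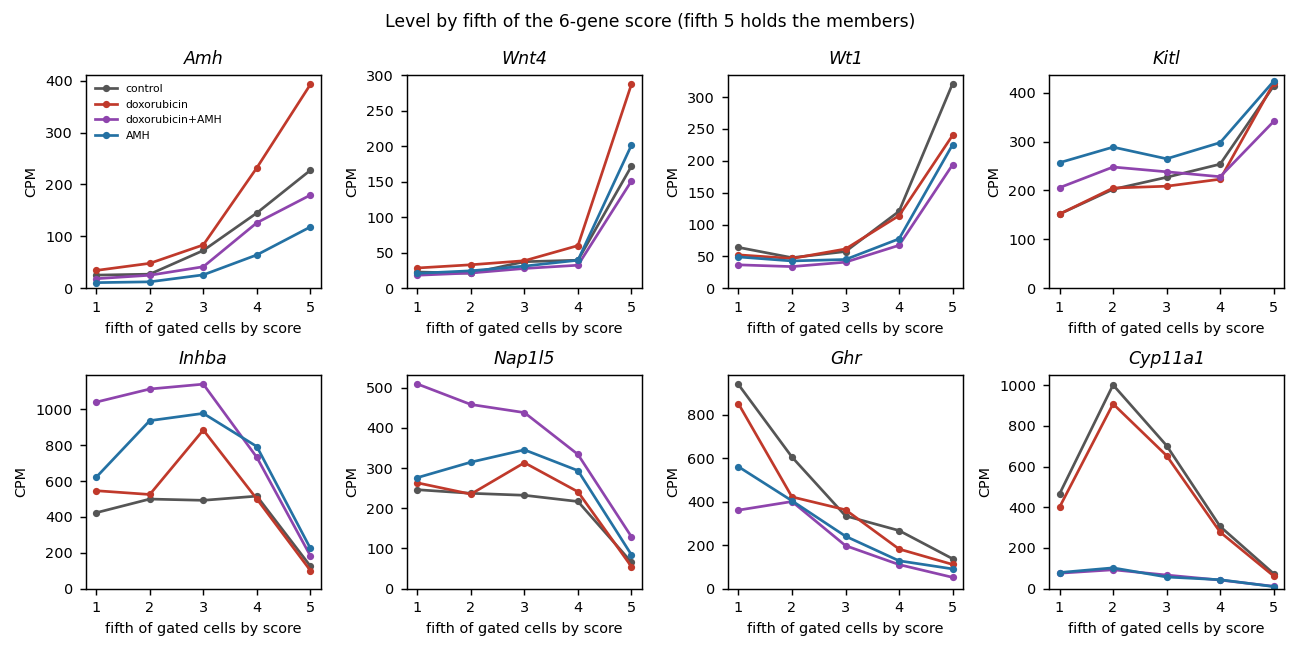
Levels of 8 genes (CPM) in 5 groups of gated cells ordered by score, with 1 line per library; group 5 holds the members. Wnt4 and Wt1 are highest in group 5, while Inhba, Nap1l5 and Ghr are lowest there in every library.

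Libraries with and without the hormone can be set side by side in 2 comparisons that share no library, without the drug (AMH / control) and with it (doxorubicin+AMH / doxorubicin). In the members of both AMH-treated libraries, listed targets of BMP-type SMADs, among them Smad6 and Id2, were higher, as were Plxna2 and Megf6, and Slc18a2, Adamts17 and Bcl2 were lower. Among the 6915 genes whose mean over the libraries reached 20 CPM, 147 (2.13%) were at least 1.5-fold higher and 268 (3.88%) lower in AMH / control, and 197 (2.85%) higher and 332 (4.8%) lower in doxorubicin+AMH / doxorubicin. In both comparisons 94 (1.36%) were higher and 171 (2.47%) lower. The other gated cells had 43 (0.622%) higher and 134 (1.94%) lower, and 63 (0.911%) higher and 147 (2.13%) lower. Among the genes past 1.5-fold in members, 35.4% and 37.2% were higher, which median-of-ratios scaling turned into 46.3% and 48.6%.

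Of the 8 listed BMP/SMAD targets, 6 passed the level filter. Each lay above 0 in both comparisons, and 4 and 6 of them were at least 1.5-fold higher. Smad6, an inhibitor in the same pathway, stood at 16.9, 15.7, 110.2 and 131 CPM in members. It was high in both AMH-treated libraries and low in the other two, with log2 ratios of 2.63 and 2.48. In the other gated cells it stood at 29.6, 32.8, 54.3 and 79.3 CPM, a smaller difference of 1.29 and 0.65.

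Id2, an inhibitor of helix-loop-helix transcription factors, stood at 69.5, 67.5, 207 and 231 CPM in members and 213, 199.6, 284 and 343 CPM in the other gated cells. Without AMH the members were thus far below the other gated cells, and with AMH the distance was smaller. Id1 stood at 143, 106, 229 and 188 CPM, Id3 at 267, 247, 491 and 382 CPM and Smad7 at 63.2, 60.0, 154 and 138 CPM in members. Bambi, a decoy receptor, stood at 29.7, 23.0, 41.3 and 52.4 CPM. The list's median log2 ratio was 0.90 without the drug (AMH / control) and 1.19 with it (doxorubicin+AMH / doxorubicin), against -0.03 and -0.04 for all genes, and 0.45 and 0.38 for the list in the other gated cells. Id4 and Smad9, below the filter, stood at 6.23, 4.50, 12.3 and 15.0 CPM and 2.71, 2.28, 10.4 and 13.4 CPM.

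The 8 genes highest by both AMH ratios included Smad6 and 7 that are not on the list. Megf6, a protein with EGF-like repeats, stood at 7.29, 3.45, 70.7 and 80.7 CPM in members and 5.01, 5.69, 6.58 and 7.40 CPM in the other gated cells. Plxna2, a semaphorin receptor, stood at 129.9, 76.4, 428 and 507 CPM in members and 41.6, 32.6, 40.6 and 48.2 CPM in the other gated cells. Adgrb3, an adhesion G protein-coupled receptor, stood at 8.23, 6.12, 46.0 and 47.9 CPM and 2.54, 1.90, 3.45 and 3.44 CPM. In each of these 3 genes the members of both AMH-treated libraries stood high, while the other gated cells differed by less than 1.5-fold on the scale of CPM + 5, which understates the change of low genes.

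Tmtc1, an endoplasmic reticulum mannosyltransferase and one of the genes named for its level in members, followed the same form, at 225, 214, 406 and 442 CPM in members and 66.7, 63.3, 51.3 and 57.1 CPM in the other gated cells. Unc5b, a netrin receptor, stood at 6.63, 3.50, 43.1 and 43.7 CPM, Igfbp4, a binding protein of insulin-like growth factors, at 24.7, 20.8, 101 and 153 CPM, and Abi3bp, a matrix protein, at 12.7, 11.3, 48.6 and 59.7 CPM. Itm2a stood at 31.6, 33.9, 138 and 137 CPM. The cell cycle inhibitor Cdkn1c stood at 13.2, 17.3, 37.8 and 43.8 CPM in members and 14.0, 17.4, 11.0 and 17.1 CPM in the other gated cells, again high in both AMH-treated libraries.

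**Figure D3:**
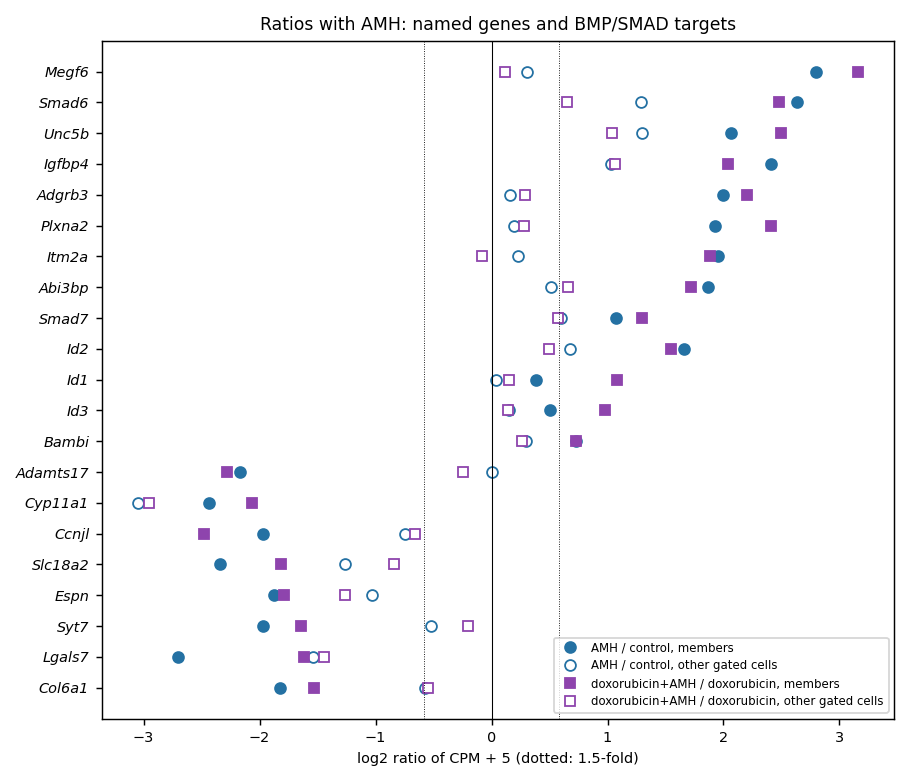
Log2 ratios of CPM + 5 with against without AMH for the genes named by rule and the listed BMP/SMAD targets. Filled symbols are members and open symbols other gated cells, circles AMH / control and squares doxorubicin+AMH / doxorubicin, with dotted lines at 1.5-fold; for Megf6, Plxna2 and Adgrb3 the filled symbols lie past 1.5-fold and the open ones within it.

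At the other end, Adamts17, a matrix protease, stood at 52.2, 48.0, 5.93 and 7.75 CPM in members, against 3.31, 4.52, 3.02 and 3.33 CPM in the other gated cells. It was low in the members of both AMH-treated libraries. Slc18a2, the vesicular monoamine transporter, stood at 480.5, 472, 131 and 90.7 CPM in members and 125, 123, 66.6 and 49.2 CPM in the other gated cells. It was lower with AMH in both sets of cells, with log2 ratios of -2.34 and -1.82 in members. Amh, whose product was the agent dosed, stood at 227, 393, 179.6 and 118 CPM in members, so that the log2 ratios were -0.92 and -1.11.

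Bcl2, which blocks mitochondrial cell death, stood at 84.3, 65.9, 17.0 and 26.8 CPM in members and 26.6, 19.1, 11.7 and 17.7 CPM in the other gated cells. It was the lowest of the 8 measured cell death genes by both AMH ratios (-1.49 and -1.69), and Bcl2l1, another blocker, had ratios of -0.51 and -0.71, while the list's medians were 0.04 and -0.01. Ccnjl, a cyclin-like gene, stood at 58.2, 56.9, 6.06 and 11.2 CPM, Syt7, a calcium sensor of vesicle fusion, at 81.9, 71.3, 19.5 and 17.2 CPM, Espn, an actin bundler, at 55.4, 46.3, 9.80 and 11.4 CPM and Col6a1 at 71.3, 56.5, 16.3 and 16.5 CPM. Each was low in both AMH-treated libraries. Lgals7, a galectin of lining epithelia, stood at 111, 42.0, 10.3 and 12.7 CPM, and at 19.8, 25.7, 10.4 and 14.8 CPM without the members that carried RNA of other cell types.

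Of 13 listed genes of gonadotropin response and steroid synthesis, 9 passed the filter. Of these, 5 were at least 1.5-fold lower and 2 higher in AMH / control, and 4 lower and 2 higher in doxorubicin+AMH / doxorubicin, with medians of -0.89 and -0.52. Over all genes 3.88% were lower and 2.13% higher in the first, and 4.8% and 2.85% in the second, with medians of -0.03 and -0.04. Cyp11a1 stood at 73.1, 61.7, 11.0 and 9.47 CPM in members, with log2 ratios of -2.43 and -2.06. The macrophage cells, which do not make it, had 46.4, 32.3, 10.2 and 5.98 CPM, so the level outside its source differed between the libraries in the same direction, and its part in the member values was not tested. The ratios moved with the cells taken: with marked doublets removed they were -1.16 and -2.46, and with the top 20% taken within each library -1.95 and -0.99.

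The receptor Fshr stood at 88.2, 72.5, 48.9 and 36.4 CPM in members, and Nr5a2, a nuclear receptor required for ovulation, at 474, 367, 224 and 185 CPM. Both are gate genes and were lower in AMH-treated libraries. Hsd3b1, a steroid dehydrogenase, stood at 408, 350.1, 128 and 185 CPM. On the higher side stood Hsd17b1, which makes oestradiol from oestrone, at 174, 215, 439 and 324 CPM, and Foxo1, a transcription factor of growing follicles, at 338, 279.6, 540.3 and 549 CPM. Among the genes that receive the hormone, Amhr2 stood at 190.2, 239, 183 and 184 CPM and the type 1 receptor Bmpr1a at 168, 154, 161 and 163 CPM, and of the 8 genes of AMH and its receptors and SMADs only Amh itself was past 1.5-fold in either AMH comparison.

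The drug likewise has 2 comparisons that share no library, doxorubicin / control without the hormone and doxorubicin+AMH / AMH with it. In members few genes were higher with doxorubicin in both comparisons, and the 8 lowest genes stood at 12.5 CPM or less once members carrying RNA of other cell types were left out. In doxorubicin / control 14 of 6915 genes (0.202%) were at least 1.5-fold higher and 111 (1.61%) lower, and in doxorubicin+AMH / AMH 65 (0.94%) were higher and 196 (2.83%) lower. In both, 1 gene (0.0145%) was higher and 75 (1.08%) lower. The other gated cells had 5 (0.0723%) higher and 19 (0.275%) lower, and 8 (0.116%) higher and 43 (0.622%) lower. The genes past 1.5-fold in members were higher in 11.2% and 24.9% of cases, and under median-of-ratios scaling in 29.6% and 46.2%. When cells with RNA of other types were left out before the members were chosen, the counts past 1.5-fold in either direction were 38 and 111, in place of 125 and 261.

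The gene higher in both was Ccng1, encoding cyclin G1, a p53 target. It stood at 12.5, 29.2, 29.0 and 16.6 CPM in members, with counting intervals of 11.1 to 14.0, 26.7 to 31.8, 25.4 to 33.1 and 14.4 to 19.0. Both drug-treated libraries were above both others beyond counting error, and the log2 ratios were 0.97 and 0.66. The second was under 1.5-fold, at 0.57 and 0.53, with the top 20% taken within each library and without Cdh12 and Cntn4 in the score. In the other gated cells Ccng1 stood at 16.4, 40.9, 23.1 and 17.6 CPM, with log2 ratios of 1.10 and 0.31.

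Amh came next, at 0.78 and 0.58, and at 0.63 and 0.40 without the members that carried RNA of other cell types. Its 4 levels in members did not follow the drug alone: 227, 393, 179.6 and 118 CPM, highest in doxorubicin and lowest in AMH. Ihh, a hedgehog ligand that granulosa cells send to theca cells, had a similar form at 37.0, 68.4, 26.8 and 18.3 CPM. Gamt, which completes creatine synthesis after Gatm, stood at 49.2, 74.2, 60.9 and 42.2 CPM, and Bex2 at 36.5, 56.7, 24.8 and 16.5 CPM. The remaining 3 of the 8 highest, the long RNA Pvt1, the mitochondrial translation factor Tsfm and Ahsa2, a co-chaperone gene, had log2 ratios between 0.43 and 0.65. Without those members Ccng1, Amh and Bex2 were still among the 8 highest, while Creld2, Phgdh, Rnaset2a, Rbm3 and Nupr1 took the places of the others.

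The 8 lowest were led by Dcpp3, a gene of a family of near-identical copies made in oviduct and gland epithelium, at 311, 0, 0 and 268 CPM (the counting intervals of the zeros reach 0.205 and 0.476 CPM), and Ovgp1, oviductal glycoprotein, at 472, 4.89, 27.1 and 674 CPM. Without the members that carried RNA of other cell types, Dcpp3 stood at 0.94, 0, 0 and 0 CPM and Ovgp1 at 12.5, 4.83, 3.33 and 12 CPM. A2ml1, Ecrg4, Plet1, Wfdc18, Ppp2r2b and Mecom showed the same form, between 39.5 and 204 CPM in control and AMH and at most 4.89 CPM in doxorubicin and doxorubicin+AMH. Without those members these 6 stood between 0 and 3.25 CPM, and Ovgp1 still had log2 ratios of -0.84 and -1.03. The 8 oviduct genes summed to 1076, 29.1, 41.0 and 1199 CPM in members, and to 19.0, 8.48, 4.44 and 15.5 CPM without those members.

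Of 30 listed p53 targets, 13 passed the filter in members. In doxorubicin / control 3 of them, Cdkn1a, Ccng1 and Phlda3, were at least 1.5-fold higher and none lower, and the median log2 ratio was 0.20, against -0.02 for all genes. In doxorubicin+AMH / AMH 1 was higher and 2 (Plk2 and Dcxr) lower, with a median of 0.02 against -0.03 for all genes. Over all genes 0.202% were higher and 1.61% lower in doxorubicin / control, and 0.94% and 2.83% in doxorubicin+AMH / AMH. In the other gated cells the list's medians were 0.29 and 0.01, and in members without RNA of other cell types 0.35 and 0.14. Leaving those members out gave 4 higher and none lower in doxorubicin / control, and 2 higher (Cdkn1a and Ccng1) and none lower in doxorubicin+AMH / AMH. Without those members the log2 ratios of Plk2 and Dcxr in doxorubicin+AMH / AMH were -0.18 and 0.49, in place of -0.83 and -0.77.

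Cdkn1a, a cell cycle inhibitor, stood at 22.6, 38, 23.6 and 17.3 CPM in members and at 15.7, 83.4, 27.7 and 18.6 CPM in the other gated cells. In doxorubicin the members thus held less of it than the other gated cells. Without members that carried RNA of other cell types it stood at 6.06, 32.2, 20.8 and 11.9 CPM, which made its log2 ratio in doxorubicin / control 1.75 in place of 0.64, and in doxorubicin+AMH / AMH 0.61 in place of 0.36. It was then past 1.5-fold in both comparisons. In doxorubicin / control it was under 1.5-fold, at 0.48, with the top 20% taken within each library. Bax, a cell death effector, stood at 92.2, 128, 144 and 109.5 CPM, higher in both drug-treated libraries, and Mdm2, the p53 ubiquitin ligase, at 43.8, 51.6, 45.5 and 44.0 CPM. Phlda3, an inhibitor of AKT signalling, stood at 8.89, 22.0, 27.2 and 22.2 CPM in members, low in control and higher in the other 3 libraries, whereas in the other gated cells it stood at 7.93, 20.4, 11.4 and 11.4 CPM.

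Of the 17 targets below the filter, 13 lay above 0 in doxorubicin / control and 4 were at least 1.5-fold higher (Eda2r, Zmat3, Aen and Gdf15). In doxorubicin+AMH / AMH 9 lay above 0 and 2 were higher (Gdf15 and Psrc1), and none was lower in either. The medians of the 17 were 0.28 and 0.04. Over all 6489 genes at 2 to under 20 CPM the medians were -0.07 and -0.10, 0.216% and 0.509% were at least 1.5-fold higher, and 6.61% and 12.1% lower. Without the members that carried RNA of other cell types, 16 and 11 of the 17 targets lay above 0, with medians of 0.28 and 0.13. The same 4 were then higher in doxorubicin / control, and only Gdf15 in doxorubicin+AMH / AMH, without Psrc1. Eda2r, a receptor of the tumour necrosis factor family, stood at 4.05, 20.1, 8.38 and 4.90 CPM in members, with an interval of 18.1 to 22.3 in doxorubicin that lay apart from the others. Gdf15, a stress cytokine, stood at 2.71, 12.3, 12.8 and 3.26 CPM, high in both drug-treated libraries. Aen, a p53-induced exonuclease, stood at 9.38, 20.3, 10.3 and 14.9 CPM, with a log2 ratio of -0.37 in doxorubicin+AMH / AMH, and Zmat3, an RNA-binding protein, at 5.69, 12.9, 7.87 and 5.88 CPM.

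**Figure D4:**
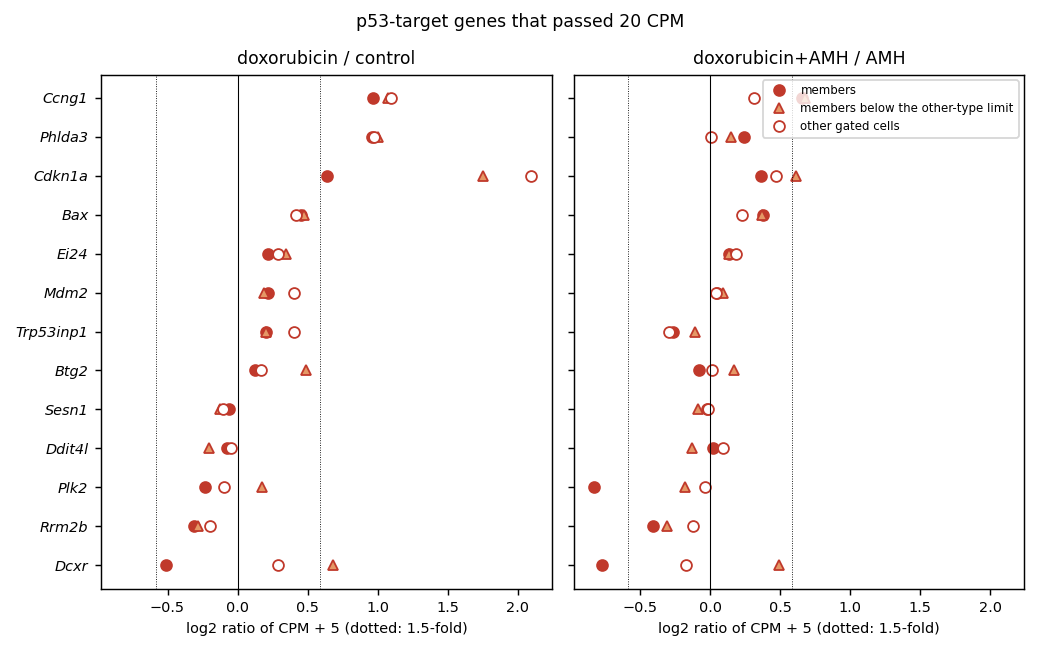
Log2 ratios of CPM + 5 for the 13 p53 targets that passed 20 CPM, in doxorubicin / control (left) and doxorubicin+AMH / AMH (right). Filled circles are members, triangles members without RNA of other cell types, open circles other gated cells, with dotted lines at 1.5-fold; Ccng1 lies past 1.5-fold in members on both sides, and on the left Dcxr and Cdkn1a shift most when those members are left out.

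Doxorubicin+AMH against doxorubicin asks how the drug-treated libraries differ by the hormone. The 13 p53 targets had a median log2 ratio of -0.01 in members and -0.29 in the other gated cells, against -0.04 and -0.02 for all genes. Of all genes that passed the filter, 2.85% were at least 1.5-fold higher in members and 4.8% lower. Of the 13 targets none was higher and 2 were lower, Cdkn1a at -0.59 and Plk2 at -0.67. Without the members that carried RNA of other cell types none was lower, with -0.53 and -0.41. Cdkn1a lay just past the limit and was under 1.5-fold in 8 of 12 alternatives, for example at -0.18 with the top 20% taken within each library and -0.52 with median-of-ratios scaling. The 17 targets below the filter had a median of -0.33 in members, against -0.07 for all genes at 2 to under 20 CPM, with 5 of them above 0. Of these 17, none was at least 1.5-fold higher and 2 were lower, Eda2r and Aen, against 1.77% and 4.79% of all genes at that level. The median was -0.30, with 3 above 0, without the members that carried RNA of other cell types. Ccng1 differed by -0.01 and Bax by 0.16 in members, and by -0.71 and -0.09 in the other gated cells. The difference between members and other gated cells in this comparison was not tested. The 20 measured genes of the DNA damage response list had a median of 0.04 in this comparison, -0.03 in doxorubicin / control and 0.07 in doxorubicin+AMH / AMH.

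Cell cycle genes were compared as shares of cells and as summed levels. After each cell was thinned to 5000 UMIs, members with at least 5 UMIs of the G2/M genes made up 23.2% (19.7 to 26.9), 29.3% (25.4 to 33.4), 30.6% (24.6 to 37.2) and 21.2% (17.0 to 25.9). The shares were higher in both drug-treated libraries, but the intervals of every pair of libraries overlapped. Without the members that carried RNA of other cell types they were 24.9% (21.2 to 29.0), 27.4% (23.3 to 31.8), 33.8% (27.4 to 40.8) and 24.2% (19.4 to 29.4), with control and doxorubicin closer together. Unthinned, and with all members, they were 51.3%, 62.0%, 57.1% and 52.4%. The other gated cells had 25.3%, 24.4%, 35.4% and 30.6%, and the macrophage cells 5.88%, 0%, 0% and 5.88%. For the S-phase genes the members had 35.3% (31.3 to 39.5), 41.1% (36.8 to 45.5), 42.9% (36.3 to 49.8) and 33.0% (28.0 to 38.2). Without the members that carried RNA of other cell types these were 35.5% (31.3 to 39.9), 46.4% (41.7 to 51.2), 44.1% (37.2 to 51.2) and 37.2% (31.7 to 43.0), and the control and doxorubicin intervals then did not overlap. The other gated cells had 30.9%, 29.9%, 41.8% and 37.1%.

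Summed over members, the 26 measured G2/M genes had median log2 ratios of -0.07 in doxorubicin / control and 0.72 in doxorubicin+AMH / AMH, where 22 were at least 1.5-fold higher, against 0.94% of all genes. For AMH they were -0.12 in AMH / control and 0.62 in doxorubicin+AMH / doxorubicin, where 15 were higher, against 2.85% of all genes. The medians of all genes lay between -0.04 and -0.02 in the 4 comparisons. The doxorubicin+AMH members thus stood above both the AMH and the doxorubicin members. In the other gated cells the same medians were -0.00, 0.46, 0.09 and 0.55, in the order doxorubicin / control, doxorubicin+AMH / AMH, AMH / control and doxorubicin+AMH / doxorubicin. Among the top 10% by score, 10.5% of the 76 doxorubicin+AMH cells had 5 or more G2/M UMIs, below the 16.6%, 23.8% and 14.4% of the other 3 libraries.

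**Figure D5:**
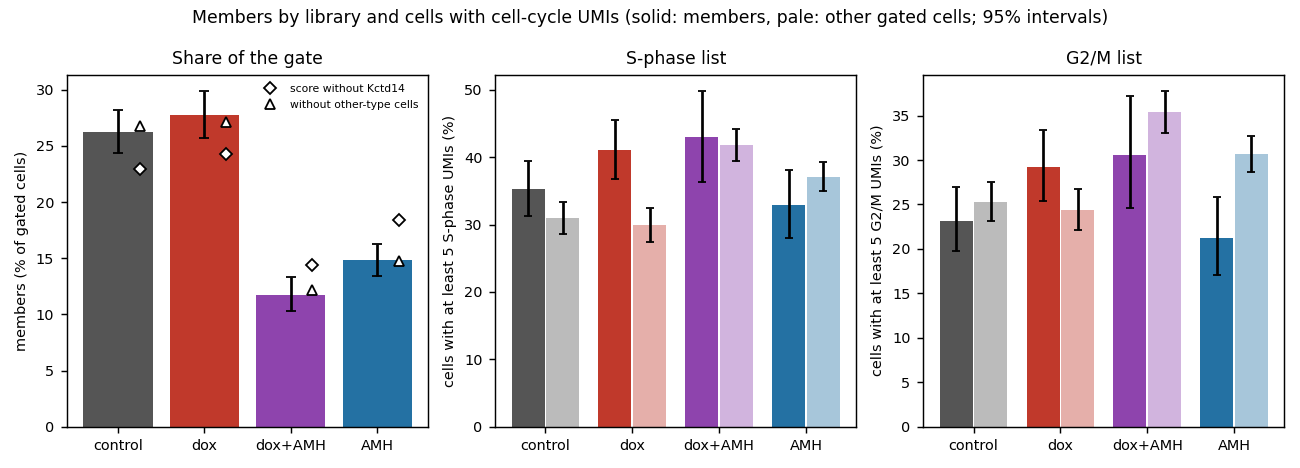
Share of gated cells that were members (left) and share of cells that held 5 or more UMIs of S-phase genes (middle) and G2/M genes (right) after thinning, by library. Bars are percentages with exact 95% intervals, solid for members and pale for other gated cells; diamonds and triangles give the member share with Kctd14 left out of the score and with other-type cells left out, and the member share is lower in both AMH-treated libraries under each.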

How the data were processed

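RNA of dissociated mouse ovary cells was counted in 4 libraries, 1 per group. The deposited values are whole-number UMI counts per gene (32285 genes) and cell, made by the authors with Cell Ranger 7.0.0 per the file headers. The genome build mm10, R 4.2.0 and Seurat 4.1.0 are named in the submitters' processing notes. How strand was handled in counting is not given in the sources used here, so overlapping genes cannot be told apart, which touches, among the genes named, Pcsk6, Cyp11a1, Prlr, Pvt1, Ahsa2, Ovgp1, Rnaset2a, Cdh12 and Bax (a gene model on the same strand) and Chn2, Wt1os, Tsfm, Plet1, Ppp2r2b, Mecom, Ccnjl, Slc18a2, Syt7, Rbm3, Bcl2, Foxl2, Gas6, Fst, Krt8, Irx3, Cdkn1a, Id4, Bmpr1a, Cdkn1c and Foxo1 (on the opposite strand). UMIs were summed over the cells of each library and divided to CPM. Ratios are log2 of CPM + 5 over genes whose mean reached 20 CPM, and a gene counts as past the limit at 1.5-fold. With 1 library per group no p-value was computed. Totals of 138647495 to 178279122 UMIs per library set the precision, and PCR duplicates are removed by the UMIs.

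The named genes are the 12 highest and 12 lowest against the other gated cells and the 8 highest and 8 lowest in each pair of comparisons, ranked by the ratio closest to 0. The members and gene lists were chosen with earlier results of these data known. The oviduct list, the limit for RNA of other cell types, the range of 2 to under 20 CPM for genes below the filter, and the alternatives without Kctd14 and without such cells were added after the values were seen. Doublets were scored with scanpy's Scrublet and the highest 0.8% per 1000 cells were marked, since the automatic threshold marked almost none in 3 of the 4 libraries. Marked cells stayed in and were removed in an alternative only. The other alternatives changed the pseudocount, filter, scaling, weighting, mitochondrial limit, doublets, size of the chosen set, score genes and depth. Promoter windows are RefSeq's, on GRCm38.p6, printed without bases in a GENCODE UTR. The ratio code was tested on simulated data. Python 3.11.15, numpy 2.4.6, scipy 1.17.1, pandas 2.3.3, scanpy 1.11.5 and matplotlib 3.10.9 were used.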

Additional observations from a re-analysis of the deposited data

Results flagged for a closer look

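Among lists with at least 5 measured genes, 4 times a list's median in members lay on opposite sides of 0 in the 2 comparisons of the same agent, by more than counting error in each. None of these differences was tested, and lists of fewer genes were not considered. The G2/M genes had a median log2 ratio of -0.0693 in doxorubicin / control and 0.72 in doxorubicin+AMH / AMH. For the hormone the same genes had -0.12 in AMH / control and 0.62 in doxorubicin+AMH / doxorubicin. Both positive values rest on the 219 doxorubicin+AMH members, the smallest set.

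The S-phase genes had medians of -0.0644 in AMH / control and 0.10 in doxorubicin+AMH / doxorubicin, the first of which was -0.04, within counting error, without the members that carried RNA of other cell types. The genes of gonadotropin response and steroid synthesis had -0.22 in doxorubicin / control and 0.23 in doxorubicin+AMH / AMH, and none of the 9 measured genes was past 1.5-fold in either.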

How the results depend on the processing

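No paired analysis was possible because each group has 1 library, and leaving out a replicate was not possible for the same reason. The order of member shares, doxorubicin+AMH lowest, then AMH, control and doxorubicin, held under every alternative that can change it. From control through doxorubicin and doxorubicin+AMH to AMH, the shares were 28.3%, 30.9%, 7.23% and 9.47% with cells thinned to 5000 UMIs, 22.9%, 24.3%, 14.4% and 18.4% without Kctd14 in the score, and 14.4%, 17.0%, 4.08% and 5.31% for the top 10% of the gate. Thinning left 271, 269, 49 and 79 members of 5000 UMIs each, in place of 552, 516, 219 and 349 members. The cause of the changes below was not tested.

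The p53 median in doxorubicin / control (0.20) was 0.0661 thinned, 0.28 with median-of-ratios scaling, 0.11 with a mitochondrial limit of 10% and 0.15 in the top 10%. In doxorubicin+AMH / AMH (0.02) it was -0.15 thinned, 0.17 with each cell weighted equally and 0.11 with median-of-ratios scaling. In doxorubicin+AMH / doxorubicin (-0.01) it was -0.11 thinned, -0.10 with each cell weighted equally, -0.22 with a filter at 5 CPM, -0.10 with median-of-ratios scaling, -0.0872 with the mitochondrial limit of 10% and -0.14 without Cdh12 and Cntn4 in the score. The BMP/SMAD median stayed above 0 throughout. In AMH / control (0.90) it was 1.31 thinned, 0.83 with the mitochondrial limit, 0.96 with a pseudocount of 1 CPM, 0.77 without Kctd14, 1.03 in the top 10% and 0.96 without other-type cells. In doxorubicin+AMH / doxorubicin (1.19) it was 1.82 thinned, 1.08 with the filter at 5 CPM, 1.09 without Cdh12 and Cntn4, 1.26 without Kctd14, 1.54 in the top 10% and 1.33 with the top 20% taken within each library.

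Thinned counts rest on the 271, 269, 49 and 79 members left in control, doxorubicin, doxorubicin+AMH and AMH, and so on far fewer UMIs. Counts of genes past 1.5-fold in doxorubicin / control, doxorubicin+AMH / AMH, AMH / control and doxorubicin+AMH / doxorubicin (125, 261, 415 and 529) were 471, 1717, 1414 and 1791 thinned and 421, 732, 750 and 857 with the filter at 5 CPM. The first 2 were 190 and 396 with the mitochondrial limit, 190 and 144 without Kctd14, 74 and 124 in the top 10%, and 38 and 111 without other-type cells. The second was 156 with cells weighted equally, the third 729 in the top 10%, and the fourth 890 with the top 20% within each library. Against the other gated cells the count (310) was 498 in the top 10%. G2/M shares were 14.8%, 20.4% and 11.4% thinned before selection in control, doxorubicin+AMH and AMH. In the top 10% they were 16.6%, 23.8%, 10.5% and 14.4%, and with the top 20% within each library 39.2% and 26.3% in doxorubicin+AMH and AMH.

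Of the named genes' values, 767 moved by less than counting error and 315 by more. Another 10, all past 1.5-fold to begin with, reached 0 (5) or crossed it (5). These were, in doxorubicin+AMH / AMH, Dcpp3 (0.00 in the top 10%, thinned and without other-type cells), A2ml1 and Wfdc18 (0.00 thinned), Ecrg4 (0.27 thinned, 0.0833 in the top 10%) and Mecom (0.0432 without other-type cells), and, in doxorubicin / control, Ppp2r2b (0.00138 thinned, 0.0862 without other-type cells). Among the ratios under 1.5-fold, 15 values of Ccng1, Phlda3, Mdm2, Gamt and Cdkn1a changed sign. In doxorubicin+AMH / AMH the thinned ratios of Gamt, Cdkn1a and Phlda3 were -0.47, -0.51 and -0.92. These ratios rest on 49 and 79 members of 5000 UMIs each, so on few UMIs per gene.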

Other observations

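Genes that serve exchange with the oocyte (10 of 12 measured) had median log2 ratios in members of -0.08 in doxorubicin / control, 0.01 in doxorubicin+AMH / AMH, 0.11 in AMH / control and -0.04 in doxorubicin+AMH / doxorubicin. Without the members that carried RNA of other cell types these were -0.19, -0.10, 0.18 and -0.04. The 10 measured basement membrane genes had medians of -0.19, -0.32, -0.03 and -0.26 in the same order, and 0, 3, 1 and 2 of them were at least 1.5-fold lower, against 1.61%, 2.83%, 3.88% and 4.8% of all genes. Without the same members 0, 0, 1 and 0 were. The 19 genes that respond to tissue dissociation had medians of -0.17, -0.14, -0.06 and -0.10, and of 0.03, -0.00, 0.03 and -0.09 without those members. Red cell genes summed to 262, 13.1, 834 and 425 CPM in members, and to 13.4, 13.5, 12.2 and 9.56 CPM without those members.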
